A study of Mus musculus with 2 samples.

Results

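The 9 genes described here, Map3k8, Map2k1, Map2k3, Map2k6, Mapk3, Mapk8, Mapk9, Mapk14 and Mapkapk2, encode kinases of the MAP kinase cascades that run below the receptor TLR4. They were taken by gene symbol, with no threshold on any measured value, from 55536 annotated genes. In these cascades a MAP kinase kinase kinase phosphorylates a MAP kinase kinase (MAP2K), which in turn phosphorylates a MAP kinase on a threonine and a tyrosine that stand either side of a single residue. The MAP kinases fall into the ERK, JNK and p38 families. In macrophages that meet bacterial lipopolysaccharide they switch on early transcription, and the p38 target MK2, the product of Mapkapk2, also controls how long cytokine mRNAs such as that of Tnf last.

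Total RNA depleted of ribosomal RNA was sequenced from the nucleoplasmic fraction of bone marrow-derived macrophages, primary cells of C57BL/6J mice. The cells had been stimulated with Lipid A, the TLR4-binding part of lipopolysaccharide, at 100 ng/ml for 30 min. There was 1 group with 2 libraries, called biological replicates 1 and 2, from 1 µg and 500 ng of starting RNA. They name 1 donor entry and separate biosamples, the age and sex of the animals were not collected, and other labels call the fraction nuclear. Beyond the word biological, no label states that the cultures were grown apart, and differences between the libraries may be technical. Unstimulated macrophages were not analysed here. Levels after stimulation are therefore all that can be described, and no p-value was possible.

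The libraries held 16037242 and 14906686 expected counts, here called reads. All 6 macrophage markers, among them Csf1r and Lyz2, were detected, with summed levels of 2569 and 3315 TPM (a share of all transcripts, corrected for length). None of the 3 markers each of T cells, B cells, neutrophils and fibroblasts was detected, and no such marker had more than 9 reads. In the second transcript tables, made from the reads directly, Col1a1 had the most of these markers, 149 and 94.2 estimated counts. That was 0.565 and 0.251 TPM, and the other markers of these cells were also under 1 TPM there. The nuclear RNAs Malat1 and Neat1 summed to 29098 and 20606 TPM. In bulk RNA, fewer cells that express a gene and less RNA per cell cannot be told apart. Replicate 2 had lower TPM in general, with a median log2 TPM ratio of -0.44 among the 10448 genes with a mean of at least 50 reads. Ratios between the libraries are therefore given on counts scaled by TMM, where that median was -0.03.

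Sequences of the 4 MAP kinase members are shown first. The first set holds the codons around the phosphorylated threonine and tyrosine in the leading coding transcript of each, 5′ to 3′ on the coding strand, read from GENCODE M21 on GRCm38 (mm10), with the codons of the threonine, the residue between and the tyrosine in capitals.
Mapk3, chr7:126763440-126763484, plus strand: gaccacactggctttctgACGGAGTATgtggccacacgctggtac
Mapk8, chr14:33392985-33393029, minus strand: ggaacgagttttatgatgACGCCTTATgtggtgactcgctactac
Mapk9, chr11:49872812-49872856, plus strand: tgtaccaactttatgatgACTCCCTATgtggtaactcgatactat
Mapk14, chr17:28728381-28728425, plus strand: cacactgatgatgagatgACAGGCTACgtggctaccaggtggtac
Each stretch lies within 1 coding exon. The JNK genes Mapk8 and Mapk9 shared 35 of 45 bases in this stretch, while the other 5 pairs shared 21 to 25. The middle codon encodes glutamate in the ERK gene Mapk3, proline in both JNK genes and glycine in the p38 gene Mapk14.

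Mapk8, Mapk9 and Mapk14 each carry a pair of coding exons of equal length that no annotated transcript lists together. These pairs are shown because the transcript estimates below divide along them. Capitals mark the positions at which the exons of a pair differ.
Mapk8 upstream, chr14:33390673-33390744, minus strand: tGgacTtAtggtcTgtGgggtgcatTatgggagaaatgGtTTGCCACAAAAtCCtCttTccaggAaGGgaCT
Mapk8 downstream, chr14:33390242-33390313, minus strand: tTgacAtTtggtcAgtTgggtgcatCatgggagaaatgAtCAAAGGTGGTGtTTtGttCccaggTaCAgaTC
Mapk9 upstream, chr11:49873836-49873907, plus strand: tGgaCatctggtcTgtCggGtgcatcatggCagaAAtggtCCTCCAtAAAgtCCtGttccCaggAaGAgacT
Mapk9 downstream, chr11:49874264-49874335, plus strand: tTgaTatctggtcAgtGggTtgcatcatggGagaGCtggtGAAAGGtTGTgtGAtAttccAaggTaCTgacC
Mapk14 upstream, chr17:28737011-28737090, plus strand: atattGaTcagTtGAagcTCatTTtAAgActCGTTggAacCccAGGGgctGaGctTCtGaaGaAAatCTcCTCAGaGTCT
Mapk14 downstream, chr17:28740680-28740759, plus strand: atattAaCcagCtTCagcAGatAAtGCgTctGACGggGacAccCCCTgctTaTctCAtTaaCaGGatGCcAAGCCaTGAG
Within a gene the exons shared 45 of 72 bases in Mapk8, 47 of 72 in Mapk9 and 39 of 80 in Mapk14. Across the JNK genes, the upstream exons shared 59 of 72 bases and the downstream exons 57, more than the exons within either gene. Of the unlike pairs, Mapk8 downstream and Mapk9 upstream shared 52, also more than within either gene, and Mapk8 upstream and Mapk9 downstream 43.

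Of the 9 genes, 8 were detected, meaning that each library gave them 1 TPM or more, against 9339 of 22028 protein-coding genes (42.4%). The median of their mean levels was 15.8 TPM, beside 7.995 TPM over the 9783 protein-coding genes with a mean TPM of at least 1. By mean level the order ran from Mapkapk2 at 178 ± 146 TPM (SD, n = 2, as for the other means here) through Map3k8 at 43.2 ± 14.8, Mapk14 at 36.2 ± 7.42 and Map2k3 at 31.2 ± 19.9. Next came Mapk9 at 15.8 ± 1.77, Mapk3 at 14.2 ± 4.43, Map2k1 at 13.3 ± 3.03, Mapk8 at 12.7 ± 1.99 and Map2k6 at 0.915 ± 0.0778 TPM. Neighbours in this order had overlapping values except at 3 steps: Mapkapk2 stood above Map3k8, Map2k3 narrowly above Mapk9, and Mapk8 above Map2k6 in both libraries.

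**Figure D1:**
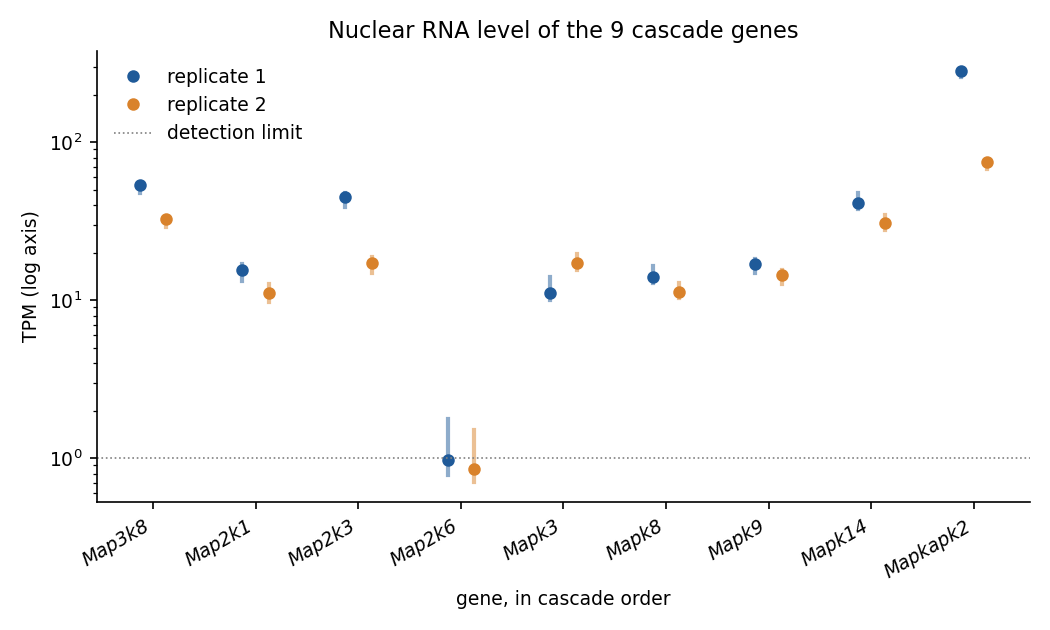
Level of each of the 9 genes in TPM on a log axis, in cascade order; points are the 2 libraries, bars the deposited credibility bounds, and the dotted line the detection limit of 1 TPM. Mapkapk2 is highest at 281 and 74.7 TPM, Map2k6 is the only gene under the limit at 0.970 and 0.860 TPM, and Mapk3 is the only gene with a higher TPM in replicate 2.

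Map3k8 (ENSMUSG00000024235.11, chr18:4331327-4353015, minus strand) encodes TPL2, the MAP kinase kinase kinase that activates MEK after TLR4 engagement. It had 1695 and 1321 reads, or 53.7 and 32.7 TPM, and was the second of the 9 genes in each library. It lay above 89.4% and 88.0% of protein-coding genes with a mean TPM of at least 1. The scaled log2 ratio of replicate 2 to replicate 1 was -0.29, a 1.23-fold lower value whose bounds did not overlap.

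Map3k8 RNA was split between a coding and an intron-holding model. The coding transcript Map3k8-201 took 46.6% and 47.8% of the gene's expression, and Map3k8-203, annotated as a retained intron with 1526 of its 2048 bases in introns of Map3k8-201, took 37.8% and 41.0%. Both shares therefore differed little between the libraries. TPL2 protein is held in check by p105, the product of Nfkb1. ABIN2, the product of Tnip2, is a further partner of TPL2. Nfkb1 stood at 72.6 and 28.1 TPM, and its scaled log2 ratio was -1.21, a 2.31-fold lower value in replicate 2. Tnip2 stood at 35.6 and 22.9 TPM, a log2 ratio of -0.36. The Map3k8 level thus lay between those of its partners in replicate 1 and above both in replicate 2.

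Among the MAP2K genes, Map2k1 (ENSMUSG00000004936.8, chr9:64185770-64253631, minus strand) encodes MEK1, which activates ERK. It had 445 and 427 reads, or 15.5 and 11.2 TPM, and a log2 ratio of 0.01. Its paralog Map2k2, for MEK2, was higher in both libraries, at 31.5 and 21.9 TPM, so that Map2k1 made up 32.9% and 33.8% of the TPM of the pair. The coding transcript Map2k1-201 held 69.6% and 76.9% of the expression. The retained-intron model Map2k1-204 held 25.7% and 19.5%, on only 31.2 and 22 reads. Gm48855 and Uchl4 lie on the opposite strand within Map2k1 introns, with 269 and 106 reads and with 106 and 46 reads, and touch none of its exons; whether counting used strand is not stated. The 50-base words of the leading transcripts were compared with all other annotated genes. Map2k1 shared 7 of 2387 with Map2k2, Mapk3 shared 1 of 1667 with the gene Gm15546, and the other 7 genes shared 0. For Mapk8 the leading transcript was the retained-intron model Mapk8-207. It lacks 4949 of the 5756 bases of the coding Mapk8-205, and those were not compared.

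Map2k3 (ENSMUSG00000018932.9, chr11:60932033-60952811, plus strand) and Map2k6 (ENSMUSG00000020623.11, chr11:110399122-110525522, plus strand) encode MKK3 and MKK6, kinases that activate p38. Map2k3 had 895 and 503 reads, or 45.3 and 17.2 TPM. Its log2 ratio was -0.77, a 1.70-fold lower value in replicate 2, and the bounds did not overlap. Map2k6 had 28 and 32 reads, or 0.970 and 0.860 TPM, and its bounds, 0.786 to 1.78 and 0.710 to 1.51 TPM, straddled the detection limit. Map2k3 thus supplied 97.9% and 95.2% of the TPM of the pair. The coding transcript Map2k3-201 took 42.4% and 52.3%, and the retained-intron model Map2k3-204 took 33.0% and 24.8%, on 95 and 35 reads. For Map2k6 the shares of Map2k6-201 (64.6% and 42.6%), Map2k6-202 (7.99% and 29.0%) and Map2k6-204 (17.0% and 26.1%) rested on 28 and 32 reads in all and cannot be read as a difference.

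Mapk3 (ENSMUSG00000063065.13, chr7:126759601-126765819, plus strand) encodes ERK1, the target of MEK. It had 273 and 505 reads, or 11.0 and 17.3 TPM, and was the only one of the 9 genes with a higher TPM in replicate 2. Its log2 ratio was 0.95, a 1.94-fold higher value that stood just under the 2-fold limit, with bounds that did not overlap.

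The added Mapk3 reads of replicate 2 were assigned to 1 transcript. Mapk3-203 had 162 and 411 reads and took 57.8% and 75.5% of the expression, while the full-length coding transcript Mapk3-202 had 108 and 85.8 reads and took 36.5% and 14.9%. Mapk3-203 lacks 218 bases at the start of Mapk3-202 and begins with 134 bases that are intron in it. Its annotated coding part is 795 bases, against 1140 in Mapk3-202. In the second transcript tables, made from the reads directly, Mapk3-203 had 172 and 614 estimated counts and Mapk3-202 had 127 and 75.3, the same direction.

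The JNK genes Mapk8 (ENSMUSG00000021936.14, chr14:33377898-33447158, minus strand) and Mapk9 (ENSMUSG00000020366.18, chr11:49846751-49886421, plus strand) encode JNK1 and JNK2, which phosphorylate the transcription factor Jun. Mapk8 had 781 and 730 reads, or 14.1 and 11.2 TPM, and a log2 ratio of -0.03. Inside its introns lie Gm49037, on the same strand, with 73 and 121 reads, and Gm46448, on the opposite strand, with 25 and 10. Mapk9 had 847 and 875 reads, or 17.0 and 14.5 TPM, and a log2 ratio of 0.11. The values of the 2 genes overlapped across libraries, although Mapk9 was the higher within each. Mapk10, the JNK3 gene known from neurons, had 8 reads in each library and 0.0700 and 0.0600 TPM. The JNK family TPM was thus divided between Mapk8, at 45.1% and 43.5%, and Mapk9, at 54.7% and 56.3%.

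Mapk8 was the only one of the 9 genes led by a non-coding model. Mapk8-207, a retained-intron transcript with 2004 of its 2811 bases in introns of Mapk8-205, took 27.2% and 24.0% of the expression, and the coding transcript Mapk8-205 took 26.2% and 23.4%. These shares lie so close that the order is not settled: by reads Mapk8-205 led, with 349 and 304 against 169 and 147. Mapk9 was led by the coding transcript Mapk9-201, at 38.8% and 39.6%, followed by the processed transcript Mapk9-206, at 22.7% and 23.3%, of whose 2192 bases 1291 lie in introns of Mapk9-201.

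The JNK genes differed in which of the paired exons printed above their transcripts held. In Mapk8, transcripts with the upstream exon took 72.2% and 57.7% of the TPM of those with either exon. In Mapk9 they took 8.14% and 18.2%, the downstream exon accounting for 91.9% and 81.8%. The upstream share was thus higher in Mapk8 than in Mapk9 in both libraries, by more than the gap between libraries, and the second transcript tables gave the same order, at 59.6% and 45.7% against 38.7% and 30.9%. In replicate 2 of those tables the downstream exon led in Mapk8 as well. The Mapk8 figures carry a further limit: in the first tables the only upstream-exon transcript with reads, Mapk8-205, is also the longest at 5756 bases, against 2587 bases for Mapk8-201, so reads outside the exons weigh in the split. Mapk8-211, a retained-intron model of 1 exon, runs across both Mapk8 exons, and its 186 and 143 reads entered neither share. Only transcripts that list an exon with its exact ends were summed. Mapk8-209, which begins inside the Mapk8 downstream exon, was left out at 0.56 and 0.73 TPM (2.93 and 5.02 reads). So were Mapk9-208, which ends inside the Mapk9 downstream exon, at 0.98 and 0.33 TPM, and Mapk9-206, which runs past it, at 3.87 and 3.39 TPM. Shares with these models were not computed. The exon shares were computed after earlier values were seen.

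**Figure D2:**
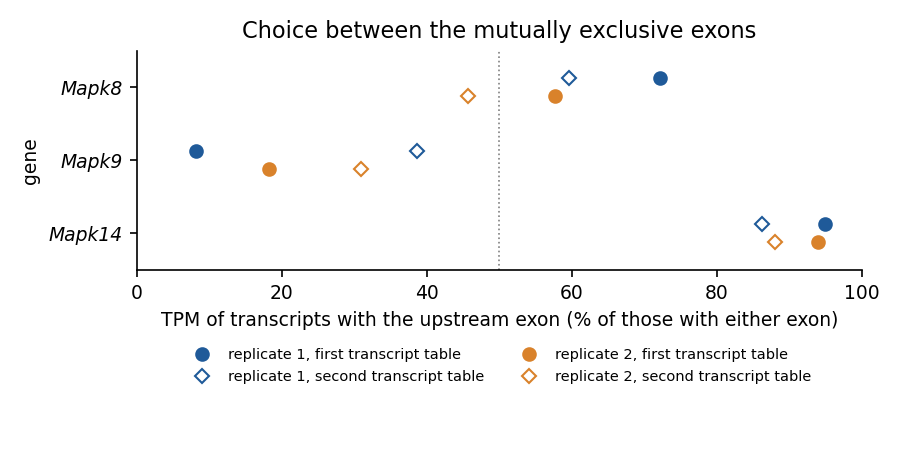
Percent of TPM in transcripts with the upstream exon, among transcripts with either exon of the pair, for Mapk8, Mapk9 and Mapk14; circles are the first and diamonds the second transcript tables, coloured by library, and the dotted line marks 50%. Mapk14 lies between 86.3% and 94.9%, Mapk8 between 45.7% and 72.2%, and Mapk9 between 8.14% and 38.7%.

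Mapk14 (ENSMUSG00000053436.15, chr17:28691329-28748406, plus strand) encodes p38α, the target of MKK3 and MKK6. It had 1799 and 1500 reads, or 41.5 and 31.0 TPM, and a log2 ratio of -0.20, with overlapping bounds. AC170998.1 lies inside a Mapk14 intron on the same strand, with 16 and 11 reads. The other p38 genes were all under the detection limit: Mapk11 (p38β) had 18 and 32 reads, Mapk12 (p38γ) 1 and 5, and Mapk13 (p38δ) 1 and 0. Mapk14 supplied 98.6% and 97.0% of the TPM of the family. In the second tables Mapk12 had 89.0 and 106 estimated counts, or 1.21 and 0.994 TPM, and the share of Mapk14 was 94.9% and 93.4%.

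Of the TPM in Mapk14 transcripts with either paired exon, those with the upstream exon took 94.9% and 93.9%. Its downstream counterpart is carried by Mapk14-201 alone, which had 113 and 105 reads. Mapk14-202, which differs from Mapk14-201 by this exon and a few bases at its ends, had 787 and 332 reads. In the second tables Mapk14-201 had 391 and 341 estimated counts. That was under the 503 of Mapk14-202 in replicate 1 but above its 34.4 in replicate 2. The leading transcript differed between libraries: Mapk14-202 took 33.4% and 15.4%, and Mapk14-203, which has another first exon and a coding part of 849 in place of 1080 bases, took 30.6% and 46.8%. Mapk14-203 thus led by mean share and in replicate 2, and Mapk14-202 led in replicate 1. The second tables gave the same direction, with 530 and 1371 estimated counts for Mapk14-203 and 503 and 34.4 for Mapk14-202. The retained-intron class, a single short model, took 6.78% and 20.2% of the TPM on 13.5 and 39.7 reads.

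Mapkapk2 (ENSMUSG00000016528.10, chr1:131053700-131097826, minus strand) encodes MK2, which p38α activates and which phosphorylates the mRNA-decay factor tristetraprolin. It was the most abundant of the 9 in each library, with 11942 and 3697 reads, or 281 and 74.7 TPM. It lay above 98.6% and 95.7% of protein-coding genes with a mean TPM of at least 1. It also had the widest gap between the libraries of the 9: its log2 ratio was -1.63, a 3.09-fold lower value in replicate 2, and the second tables gave -1.45. Its paralogs were lower in each library. Mapkapk3, for MK3, stood at 57.4 and 37.96 TPM and Mapkapk5, for MK5, at 17.2 and 14.02 TPM, so that Mapkapk2 made up 79.0% and 59.0% of the TPM of these 3 genes. The deposited Mapkapk2 levels lie slightly above their own bounds, 258 to 269 and 67.9 to 73.7 TPM, since the bounds centre on posterior means of 263 and 70.8 TPM.

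Mapkapk2 has 2 annotated transcripts, and the tables divided them differently. Mapkapk2-201, of 2854 bases, took 93.5% and 87.3% in the first transcript tables. Mapkapk2-202, named here after its values were seen, is a model of 675 bases with 187 in an intron of Mapkapk2-201; it had 140 and 92.9 reads there, against 3647 and 1687 estimated counts in the second tables. The TPM of Mapkapk2-201 was 263 and 65.2 in the first tables and 140 and 39.5 in the second, and that of Mapkapk2-202 was 18.4 and 9.48 against 179 and 50.5. The gene was lower in replicate 2 in both kinds of table, while the division into transcripts differed between them. A gene of unproven coding potential, Gm37084 (chr1:131086252-131092149), lies inside a Mapkapk2 intron on the same strand without touching its exons. It had 38605 and 19412 reads, more than Mapkapk2 itself in both libraries, and a log2 ratio of -0.93. The snRNA gene Gm25549, also in a Mapkapk2 intron on that strand, had 0 reads in both libraries. In the second tables it had 1017 and 587 estimated counts. The part of Gm37084 and Gm25549 in the Mapkapk2 values was not tested.

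Between the libraries, 1 of the 8 genes with a mean of at least 50 reads, Mapkapk2, passed the 2-fold limit with separate bounds, and it was lower in replicate 2. Over all 10448 genes at that depth 877 passed (8.39%), of which 498 were higher (4.77%) and 379 lower (3.63%) in replicate 2. A count of 1 in 8 is near that background. DESeq2 size factors over all genes came out at 1 in both libraries, which leaves the counts unscaled; the split was then 394 higher and 467 lower. On TPM ratios it was 140 and 1458. Bounds were separate at any ratio for 4 of the 8, Map3k8, Map2k3, Mapk3 and Mapkapk2, against 41.7% of all genes. The median log2 ratio of the 9 genes was -0.03, and -0.11 over the 8 with a mean of at least 50 reads. Over all genes at that depth it was -0.03, and the 10th and 90th percentiles were -0.70 and 0.76. Map2k3 lay just outside the lower of these and Mapk3 outside the upper. Map2k1 and Mapk8 lay near 0, at 0.01 and -0.03; when only genes averaging 50 reads set the DESeq2 factors they were 0.04 and 0.00, and on unscaled counts -0.06 and -0.10.

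**Figure D3:**
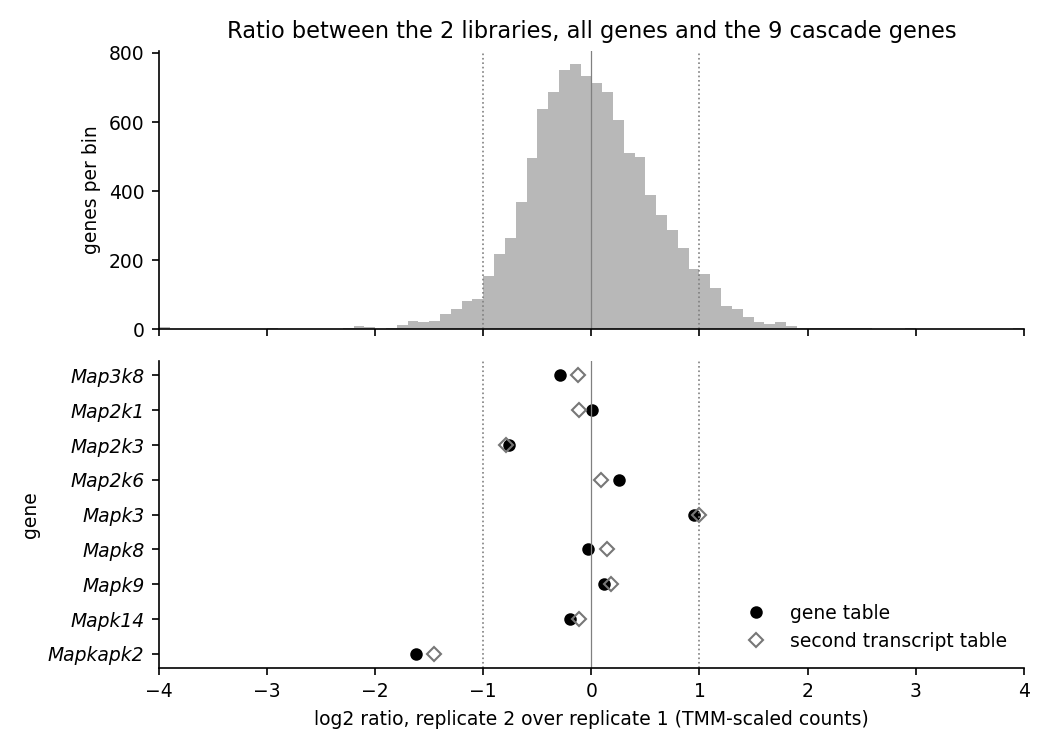
Top, number of genes by log2 ratio of replicate 2 to replicate 1 for all 10448 genes with a mean of at least 50 reads, with values beyond the axis placed in the end bins; bottom, the same ratio for the 9 genes from the gene tables (filled) and the second transcript tables (open), with dotted lines at 2-fold. Mapkapk2, at -1.63, is the only one of the 9 beyond a dotted line, and Mapk3 lies just inside the other at 0.95.

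Annotated transcript classes divided the 9 genes. A protein-coding transcript led in 8 of them, Mapk8 being the exception. Transcripts annotated as retained introns exist for 6 of the 9, and they took 56.3 ± 4.78% of the Mapk8 TPM, 52.8 ± 0.874% of Map3k8, 49.1 ± 10.3% of Map2k3, 26.7 ± 5.15% of Map2k1, 13.5 ± 9.48% of Mapk14 and 7.66 ± 2.75% of Mapk3 (mean ± SD, n = 2). The first 3 lay above 41.0%, the upper quartile of the 4397 protein-coding genes that have such a transcript and a mean TPM of at least 5. The median of the 6 was 37.9%, beside 26.8% over those genes. In the second tables these medians were 36.9% and 31.4%, and by reads in place of TPM they were 14.9% and 14.2%, so the gap nearly closed when reads were counted. RNA not yet spliced and introns kept in finished RNA are not separated by these models.

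**Figure D4:**
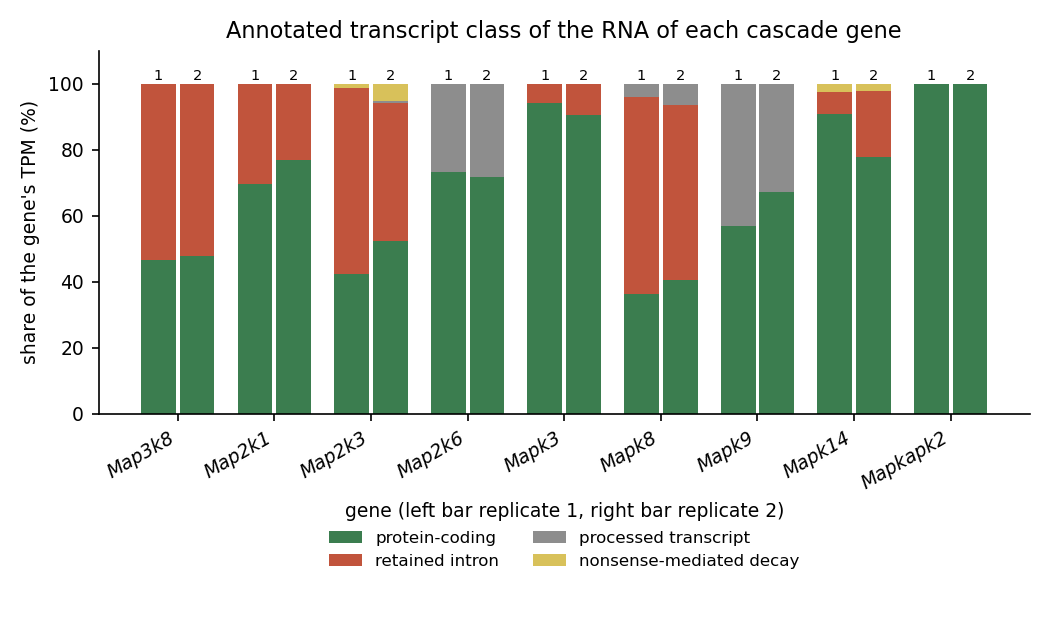
Percent of each gene's TPM by annotated transcript class, stacked, for the 9 genes in cascade order; in each pair the left bar is replicate 1 and the right bar replicate 2. Retained-intron models take over 50% in Map3k8 and Mapk8 in both libraries, and Mapkapk2, Mapk9 and Map2k6 have no such model.

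Set beside their paralogs, the members of each family differed in how the RNA was shared. Map2k3 held most of the TPM of its pair with Map2k6, and Mapk14 most of that of the p38 genes. The other genes of the pair and of the p38 family were near or under the detection limit. Of the kinases that activate ERK, Map2k2 stood above the member Map2k1 in both libraries. Above JNK, Map2k4 (MKK4) stood at 12.3 and 6.74 TPM and Map2k7 (MKK7) at 13.7 and 13.3 TPM. Map2k4 was below Mapk8 and Mapk9 in both libraries but above them in the second tables, at 18.6 and 14.05 TPM against 8.80 or less, and the Map2k7 values overlapped those of Mapk8.

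**Figure D5:**
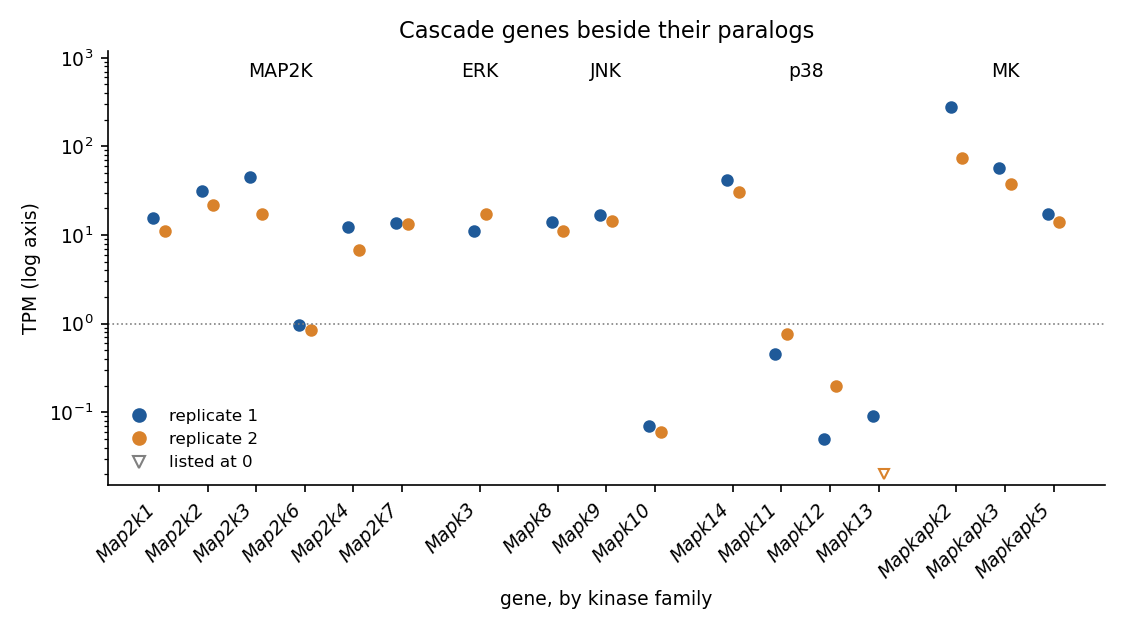
Level in TPM on a log axis of the cascade genes and their nearest paralogs, by kinase family, with both libraries as points; the open triangle marks a gene listed at 0 and the dotted line the detection limit of 1 TPM. Mapk14 is the only p38 gene above the limit, and Map2k2 lies above Map2k1 in both libraries.

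A wider list of 47 cascade genes, from kinases of MAP2K to transcription factors, was described in the same way. Of these, 40 were detected, and 41 had a mean of at least 50 reads. Among those 41, 3 passed the 2-fold limit, all lower in replicate 2: Nfkb1, and Map3k5 and Ksr2, which are named for that after their values were seen, at log2 ratios of -1.30 and -1.24. None passed it upward. The count of 3 in 41 is near the 8.39% of all genes. Of the 41 ratios 33 were below 0 and 8 above, where 5474 of all 10448 genes (52.4%) were below 0, and the median was -0.25. Of the other 11 MAP kinase kinase kinase genes all were detected. By mean level Araf was highest, at 41.7 and 31.2 TPM, and Map3k4 lowest, at 8.07 and 4.24 TPM, although Map3k5 was lower than it in replicate 2 at 3.96 TPM. Among the scaffolds, which hold the kinases together, Spag9 (JIP4) was highest at 137 and 49.7 TPM, and Mapk8ip2 was listed at 0 in both libraries. Of the further MAP kinase genes, Mapk6 (ERK3) was highest at 149 and 71.8 TPM, above every MAP kinase among the 9. Among the kinases that MAP kinases activate, Mknk1 stood highest at 77.8 and 54.4 TPM after Mapkapk2, and Rps6ka5 (MSK1) lowest at 2.98 and 1.62 TPM. All 7 transcription factor substrates were detected. By mean level Mef2a was highest, at 72.9 and 48.5 TPM, and Elk3 lowest, at 6.49 and 4.63 TPM, although Mef2c was above Mef2a in replicate 1 at 74.99 TPM.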

How the data were processed

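Ribosomal RNA-depleted nucleoplasmic RNA of 1 group was measured in 2 libraries. The authors deposited 1 gene table and 2 transcript tables per library, on mm10 with GENCODE M21, per the deposited text files. The gene and first transcript tables hold expected counts, TPM and credibility bounds (posterior TPM signal, level not stated), and the first transcript table holds the percent of a gene's expression per transcript, per the file headers. Per the file headers, the second transcript table holds estimated counts and TPM; it was made from the reads directly. The aligner, the counter and any use of strand are not stated in the labels or headers; the columns are those RSEM and kallisto write. Features outside the annotated genes held 1.19% and 0.213% of expected counts and stayed out of library sizes.

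Expected counts were rounded and scaled by TMM over all annotated genes with edgeR 4.0.16 (R 4.3.3); DESeq2 1.42.0 size factors were an alternative, exactly 1 in both libraries over all genes and therefore also taken from genes at a mean of 50 counts. A gene passed the 2-fold limit with a mean of at least 50 counts, a ratio above 2 either way, and bounds that did not overlap when expressed relative to the posterior mean and scaled alike. The scaled ratio, without the bounds, was tested on simulated counts that held counting error only. That test does not cover the spread between these libraries. Exon shares sum the TPM of transcripts that list each exon with its exact ends. Symbols, coordinates and sequences come from GENCODE M21 on GRCm38, the build of the files. Errors are the spread of 2 libraries, and the bounds cover estimation error only.

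The members and lists were chosen with earlier results of these data known. All 9 members, their nearest paralogs, Nfkb1 and Tnip2 are named, with the highest and lowest gene of each other list group; 1 gene named by this rule is not reported here. For each member the leading transcript is named, the second where its mean share is at least 20%, and any whose share differs by at least 20 points. Alternatives covered detection limits, scalings, count filters, the second tables, the TPM base, read shares and leaving out each library.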

Additional observations from a re-analysis of the deposited data

How the results depend on the processing

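No paired analysis was possible because there is 1 group. The number of members detected was 8 or 9 under every alternative tried, and the number led by a protein-coding transcript was 7 to 9; in the second tables the leading models were Mapk8-211, Mapk14-207 and Mapkapk2-202 for those 3 genes. The median TPM of the members, 15.8, was 8.22 in the second tables, for which the cause was not tested, 15.3 from posterior means, and 66.9 as TPM over nuclear protein-coding genes only, whose base is smaller by construction; with 1 library left out it was 17.0 to 17.2. The members beyond 2-fold were 2 by the ratio of TPM (Mapkapk2 and Map2k3) and 3 at 1.5-fold (those and Mapk3, where 24.5% of all genes passed), and Mapkapk2 was among them under all 9 alternatives. Over all genes, the 877 calls became 1491 at a mean of 10 counts, 5235 with no count filter, 1598 by TPM, 1520 in the second tables, which have no bounds, and 2558 at 1.5-fold. The median log2 ratio of the members was -0.42 by the ratio of TPM, where that of all genes was -0.44, and -0.11 over the 8 members at 50 counts, an alternative added after seeing the data. The median retained-intron share was 14.9% by reads, and 32.4% to 41.9% with 1 library left out. The upstream exon shares, with alternatives added after seeing the data, had means of 64.9% for Mapk8, 13.2% for Mapk9 and 94.4% for Mapk14, and were 82.4%, 12.7% and 93.2% by reads and 52.7%, 34.8% and 87.2% in the second tables. Of the settings tried for single genes before those added later, 75 stayed within the spread or counting error of their value. The other 42 moved beyond it, mostly with the TPM base, the ratio of TPM or the second tables. The Mapkapk2 ratio kept its sign in each setting. The 75 include all levels and leading transcript shares with 1 library left out, 9 of each per library. Those could not move, because their limit was the SD of the 2 libraries. Depth limits Map2k6, at 28 and 32 reads, and transcript shares that rest on as few reads.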
